A study of Mus musculus with 94 samples.

Results

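The 9 genes described here encode receptors of the TGF-β (transforming growth factor β) and BMP (bone morphogenetic protein) families: *Tgfbr1*, *Tgfbr2*, *Tgfbr3*, *Acvrl1*, *Acvr1*, *Acvr2a*, *Acvr2b*, *Bmpr1a* and *Bmpr2*. They were chosen by name, and all 9 had a row among the 16069 genes of the table of primary PV-ADSCs (stem cells from perivascular adipose tissue, PVAT). The cells came from the peri-aorta adipose tissue of c57/bl mice aged 8 weeks, were sorted as CD144-/CD45-/CD29+/Sca1+ without culture, and were each made into a SMARTseq v4 library on a Labcyte liquid handler. The tissue is labelled as normal, the series holds a single condition, and the number of mice behind the sorted cells is not given in the sources used here. Of 94 cells described, 85 were in the table, and the other 9 were not analysed here. As no cell is tied to an animal, all cells were taken as 1 sample. Cells are not replicates, so no test or p value was computed, and SDs and intervals describe these cells only.

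Ligands of this family bind a complex of type II and type I receptors, both of which are serine/threonine kinases. The type II receptor phosphorylates the type I receptor, which then phosphorylates Smad proteins: Smad2 and Smad3 after TGF-β or activin, and Smad1, Smad5 and Smad9 after BMPs. In mesenchymal and perivascular cells, TGF-β is known for driving smooth muscle genes and matrix synthesis, and BMPs are known for roles in bone, fat and vessel formation.

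The cells were split by *Dcn* (decorin, a matrix proteoglycan of fibroblasts): 58 cells with a normalized read count of at least 1000 are called stromal, and the other 27 are called other cells. No cell lay near this limit, since the lowest stromal value was 6521 and the highest value among the other cells was 269. At least 3 of 9 stromal markers reached 10 reads in 57 of 58 stromal cells and in 3 of 27 other cells. At least 3 of 10 endothelial markers did so in 24 of 27 other cells and in 3 of 58 stromal cells. *Cdh5*, which encodes the CD144 that the sort selected against, was above 0 in 23 of 27 other cells (85.2%, exact 95% interval 66.3% to 95.8%) and in 7 of 58 stromal cells (12.1%, interval 4.99% to 23.3%). In CPM (recovered reads per fixed library total), the stromal markers had a median sum of 26248 in the stromal cells (range 15.7 to 94190) and of 6.24 in the other cells (range 0.871 to 2655). The endothelial markers had a median sum of 7897 CPM in the other cells (range 0 to 13687) and of 1.38 CPM in the stromal cells (range 0 to 14180). *Itgb1* and *Ly6a*, which encode the CD29 and Sca1 of the sort, were above 0 in 35 and 52 stromal and in 12 and 21 other cells. At least 3 mesothelial markers reached 10 reads in 2 stromal cells, and no cell had that many of the 6 mural markers with a row. The defining genes *Ptprc* (leukocytes), *Plin1* (adipocytes) and *Acta2* and *Myh11* (smooth muscle) were not analysed here.

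The cells held 1146945 to 4776510 recovered reads, and the medians were 2963854 in stromal and 2691050 in other cells. The number of genes above 0 differed more, with a median of 2813 (850 to 4148) in stromal and 1416 (285 to 2278) in other cells. Only 9 stromal and 24 other cells fell in the range of 850 to 2278 genes that both classes share, and even there the medians were 2053 and 1463.5. Values for these 33 cells, called the shared range, are given beside each receptor and each named pathway gene whose direction turns or whose call changes there. How far the number of genes per cell sets the receptor values was not tested.

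Promoter sequences of 7 of the 9 receptors were found in RefSeq (GRCm38.p6), and *Tgfbr3* and *Acvrl1* had no entry. The 250 bases before the annotated start are shown for *Tgfbr2* and *Tgfbr1*, the type II and type I kinases of the TGF-β complex, because these partners differed in how many stromal cells held them. No annotated exon lay in either window. The *Tgfbr2* window is chr9:116175364-116175613 on the minus strand and the *Tgfbr1* window, the first of its 2 entries, is chr4:47352972-47353221 on the plus strand. Capitals mark matches to the GC box GGGCGG and to the CCAAT box CCAAT on either strand, and no match overlaps another.
Tgfbr2: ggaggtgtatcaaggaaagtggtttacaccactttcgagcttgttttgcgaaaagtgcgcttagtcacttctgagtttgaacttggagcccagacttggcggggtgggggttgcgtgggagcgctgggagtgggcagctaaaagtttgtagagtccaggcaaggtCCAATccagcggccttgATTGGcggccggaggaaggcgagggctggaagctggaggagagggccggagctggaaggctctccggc
Tgfbr1: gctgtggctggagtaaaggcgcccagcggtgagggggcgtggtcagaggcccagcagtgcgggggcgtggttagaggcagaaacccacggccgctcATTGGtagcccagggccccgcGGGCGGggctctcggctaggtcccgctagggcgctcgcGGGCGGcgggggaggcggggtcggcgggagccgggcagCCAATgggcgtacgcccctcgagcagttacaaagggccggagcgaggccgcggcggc
The *Tgfbr2* window held 2 CCAAT boxes and 0 GC boxes, and the *Tgfbr1* window held 2 CCAAT boxes and 2 GC boxes. Among all 32851 windows of this length, 33.8% held a CCAAT box and 32.7% held a GC box. G and C made up 58.4% of the *Tgfbr2* window and 74.8% of the *Tgfbr1* window, against a median of 52.4% over all windows. A TATA box (TATAAA), which 12.4% of all windows held, was in neither. A Smad-binding element (CAGAC), which 42.2% of all windows held, matched once in the *Tgfbr2* window. The second *Tgfbr1* entry differed from the one shown. It held 0 GC boxes, 0 CCAAT boxes and 1 Smad-binding element, and G and C made up 52.8% of it. These matches are letters in a window and not measured binding sites.

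Of the 9 receptors, 8 were found in a larger share of stromal than of other cells, but only 4 in the shared range. The same count was not made over all genes, so it is not a result about the receptors. *Tgfbr2*, *Tgfbr3* and *Bmpr2* were above 0 in over 50% of stromal cells, *Bmpr1a* in 34.5% of them, and *Tgfbr1*, *Acvrl1*, *Acvr2a* and *Acvr1* in fewer. *Acvr2b* was found in 0 stromal cells. The mean of log2(normalized read count + 1) was higher in stromal cells for 8 of 9 receptors, but 83.6% of the 11477 genes compared were higher there too. A difference of at least 2 toward stromal cells, the size rule used throughout, was reached by 4 of 9 receptors (*Tgfbr2*, *Tgfbr3*, *Bmpr1a* and *Bmpr2*) and by 16.4% of all genes. In the opposite direction, 0 of 9 receptors and 1.09% of all genes were at least 2 higher in the other cells. The median difference was 1.12 over the 9 receptors and 0.64 over all genes. All 9 receptors were above 0 in at least 3 cells, the filter for this comparison. Within the shared range, 2 receptors (*Tgfbr2* and *Tgfbr3*) reached a difference of 2 against 8.75% of genes, and 5 of 9 were higher in stromal cells against 41.1% of genes. The median difference there was 0.62 over the receptors and 0 over all genes. With a pseudocount of 10, *Tgfbr2* and *Tgfbr3* again reached 2, against 7.18% of genes.

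**Figure D1:**
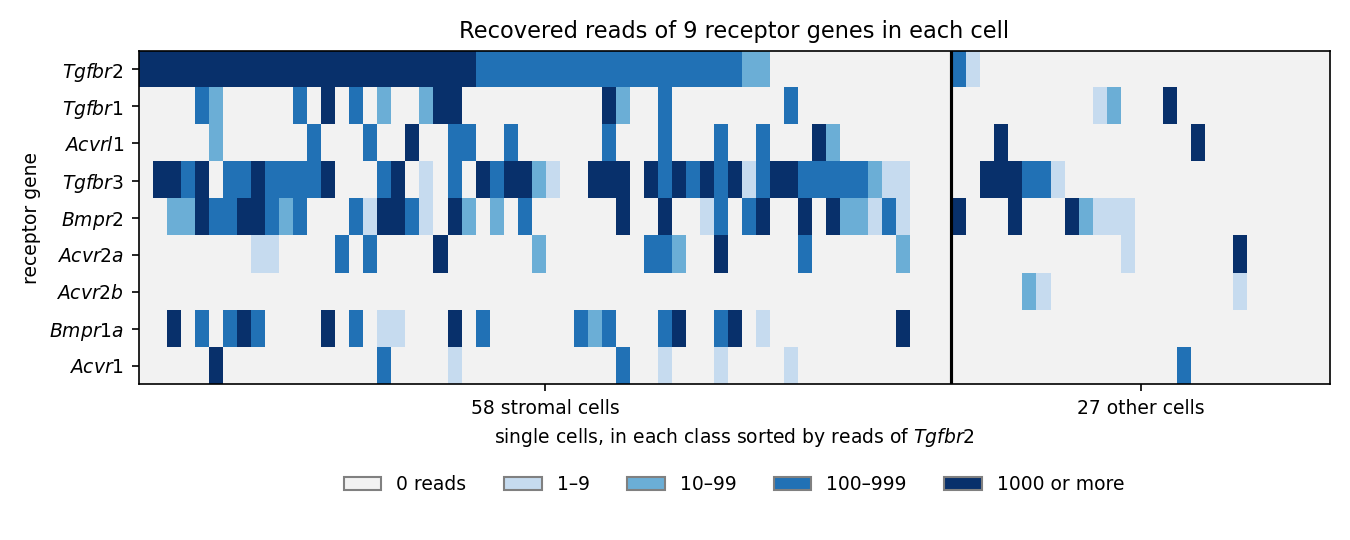
Each column is 1 of 85 cells and each row 1 receptor gene; the shade gives recovered reads, from 0 to 1000 or more, and the black line parts the 58 stromal from the 27 other cells. *Tgfbr2* fills 45 stromal columns and 2 of the others, *Bmpr1a* appears on the stromal side only, and *Acvr2b* appears in 3 other cells only.

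**Figure D2:**
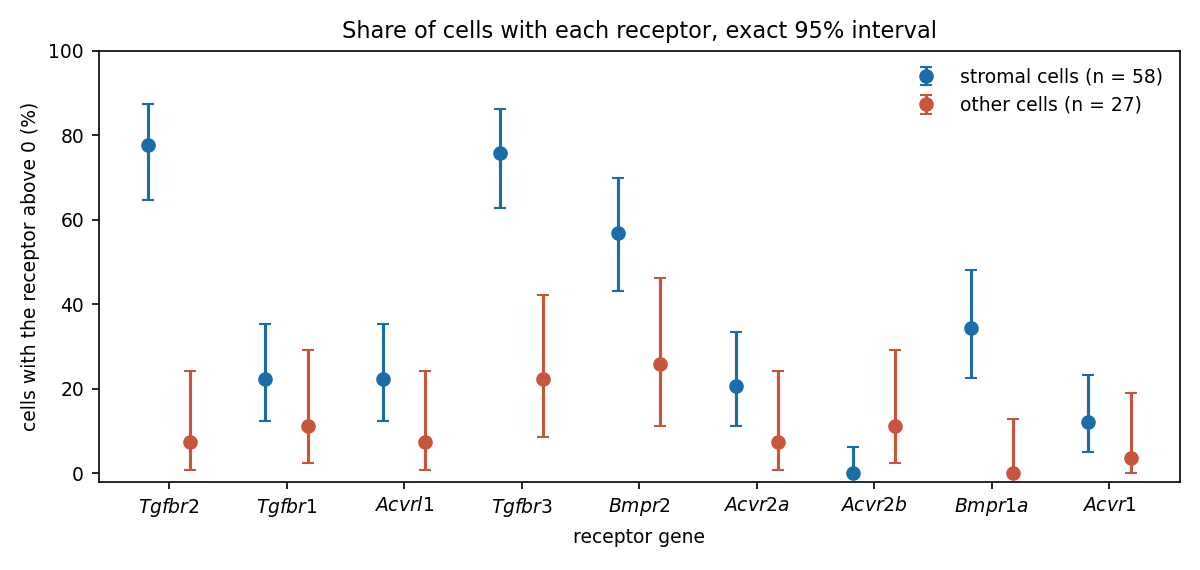
Points give the share of cells (%) with each receptor above 0 in 58 stromal and 27 other cells, and bars give exact 95% intervals, which cover counting error only. The intervals of both classes are apart for *Tgfbr2* (77.6% and 7.41%), *Tgfbr3* (75.9% and 22.2%) and *Bmpr1a* (34.5% and 0%), and overlap for the other 6 receptors. How many of all genes have intervals apart was not counted. By mean level, 83.6% of the 11477 genes compared were higher in stromal cells.

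*Tgfbr2*, the type II receptor that binds TGF-β, showed the widest gap between the classes. Its normalized read counts in stromal cells had a lowest value of 0, a median of 851 and a highest value of 10002. In the other cells the lowest and the median were 0, and the only 2 values above 0 were 4.67 and 1113. Thus 45 of 58 stromal cells had *Tgfbr2* (77.6%, interval 64.7% to 87.5%), compared with 2 of 27 other cells (7.41%, interval 0.910% to 24.3%). When present in a stromal cell it was rarely faint, as its reads ranged from 44 to 10573 (median 1062) and 43 of the 45 cells had at least 100 reads. The mean log2 level was 7.77 ± 4.52 (SD, n = 58 cells) in stromal and 0.47 ± 1.99 (n = 27 cells) in other cells, a difference of 7.30. In the shared range it was above 0 in 5 of 9 stromal and 2 of 24 other cells, with a difference of 6.04.

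*Tgfbr1* encodes ALK5, the type I kinase that Tgfbr2 activates. It was above 0 in 13 of 58 stromal cells (22.4%, interval 12.5% to 35.3%) and 3 of 27 other cells (11.1%, interval 2.35% to 29.2%), and these intervals overlap. The median was 0 in both classes, and the values reached 21074 in stromal and 2056 in other cells. The highest value rested on 782 reads, since its gene group was multiplied by 26.9 in that cell, whereas the most reads of *Tgfbr1* in any cell were 3912. Mean log2 levels were 1.97 ± 4.01 and 0.84 ± 2.57, a difference of 1.12. In the shared range the difference was 0.62, although the share was then the larger in other cells (1 of 9 stromal and 3 of 24 other cells).

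*Acvrl1* encodes ALK1, a type I receptor best known in endothelial cells, where it binds BMP9 and BMP10. It was found in 13 of 58 stromal cells (22.4%, interval 12.5% to 35.3%) with values up to 1513 and a median of 0. In the other cells it was found in 2 of 27 (7.41%, interval 0.910% to 24.3%), and those 2 values, 2413 and 2739, were above every stromal value. The mean log2 level was 1.77 ± 3.41 in stromal and 0.84 ± 3.02 in other cells, a difference of 0.93. That direction turned in the shared range, where 0 of 9 stromal and 2 of 24 other cells had *Acvrl1* (difference -0.94). The exact interval for 0 of 9 cells, here and for the receptors below, is 0% to 33.6%, so such turns rest on few cells. *Eng* (endoglin), a co-receptor that works with ALK1, went the opposite way over all cells: it was above 0 in 14 of 27 other cells (51.9%, interval 31.9% to 71.3%) and 13 of 58 stromal cells (22.4%, interval 12.5% to 35.3%), with a difference of -1.77 in mean log2 level that passed 2 in the shared range (-3.23, with 0 of 9 stromal and 14 of 24 other cells). *Acvrl1* and *Eng* were found together in 3 stromal cells and in 1 other cell.

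*Tgfbr3* encodes betaglycan, a co-receptor without a kinase that presents TGF-β2 and also binds inhibin and some BMPs. Its stromal values ran from 0 to 8010 around a median of 462, and 44 of 58 stromal cells were above 0 (75.9%, interval 62.8% to 86.1%). In the other cells the median was 0 and 6 of 27 were above 0 (22.2%, interval 8.62% to 42.3%). These 6 values were 2.46, 142, 334, 5169, 5304 and 6745, so single other cells were as high as the upper stromal cells. Of the stromal cells with *Tgfbr3*, 5 had fewer than 10 reads and 37 had at least 100. The mean log2 level was 6.61 ± 4.56 in stromal and 2.03 ± 4.30 in other cells, a difference of 4.58, and it was 3.93 in the shared range, where 5 of 9 and 6 of 24 cells were above 0.

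*Bmpr2*, the type II receptor dedicated to BMPs, was above 0 in 56.9% of stromal cells, in 48.3% at 10 reads or more and in 36.2% at 100 reads or more. Its stromal values ran from 0 to 5164 around a median of 5.45, and 33 of 58 cells were above 0 (56.9%, interval 43.2% to 69.8%). In the other cells 7 of 27 were above 0 (25.9%, interval 11.1% to 46.3%), with values of 3.54, 3.84, 4.82, 15.2, 2323, 2385 and 6279. Low reads were more common here than for *Tgfbr2*, as 21 of the 33 stromal and 3 of the 7 other cells had at least 100 reads. Mean log2 levels were 4.43 ± 4.58 and 1.70 ± 3.74, a difference of 2.73. The difference fell to 1.55 in the shared range and to 1.69 with a pseudocount of 10, both of which miss the size rule.

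The activin type II receptors were rare. *Acvr2a* was found in 12 of 58 stromal cells (20.7%, interval 11.2% to 33.4%) with values up to 7082, and in 2 of 27 other cells (7.41%, interval 0.910% to 24.3%) with values of 1.64 and 1790. The highest stromal value of *Acvr2a* rested on 2313 reads and the higher of the other 2 on 5198. Its mean log2 level was 1.46 ± 3.24 in stromal and 0.45 ± 2.09 in other cells, a difference of 1.01 that turned to -0.51 in the shared range, with 0 of 9 stromal and 2 of 24 other cells above 0. *Acvr2b* was above 0 in 0 of 58 stromal cells (exact interval 0% to 6.16%, or up to 5.17% by the limit of 3 cells), and in 3 of 27 other cells (11.1%, interval 2.35% to 29.2%) with only 2, 2 and 12 reads. It was the only receptor with a lower mean log2 level in stromal cells over all cells (difference -0.25). At 10 reads or more it was left with 1 cell. In the shared range its difference was -0.29, with 0 of 9 stromal and 3 of 24 other cells above 0.

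*Bmpr1a* (ALK3), a type I receptor for BMP2 and BMP4, was found in stromal cells alone. It was above 0 in 20 of 58 stromal cells (34.5%, interval 22.5% to 48.1%) and in 0 of 27 other cells (exact interval 0% to 12.8%, or up to 11.1% by the limit of 3 cells). Such limits are for cells with reads and not for cells that express the gene. The stromal values had a median of 0 and reached 3878, and 16 of the 20 cells had at least 100 reads. The mean log2 level was 2.90 ± 4.43 in stromal cells, and so was the difference. The difference fell to 1.57 in the shared range (2 of 9 and 0 of 24 cells) and to 1.85 with a pseudocount of 10, and so missed the size rule in both. *Acvr1* (ALK2), another BMP type I receptor, was above 0 in 7 of 58 stromal cells (12.1%, interval 4.99% to 23.3%) and 1 of 27 other cells (3.70%, interval 0.0937% to 18.97%). Of those 7 cells, 4 had fewer than 10 reads, and the highest value was 2372 in a stromal cell against 472 in the other cell. The difference in mean log2 level was 0.31 over all cells and -0.37 in the shared range. The other cell with *Acvr1* was the one with the highest *Dcn* below the limit (269), and 8 of the 10 endothelial markers reached 10 reads in it. At a limit of 100 it counts as stromal, *Acvr1* is then found in 13.3% of stromal and 0% of other cells, and the difference is 0.77.

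Levels of different receptors were compared only per length, as RPKM (recovered reads per fixed library total and per kilobase of exon). In stromal cells the order by mean was *Tgfbr2* (65.2 ± 90.6, SD over 58 cells), *Tgfbr3* (55.2 ± 94.4), *Bmpr1a* (21.4 ± 48.996), *Bmpr2* (14.97 ± 28.96), *Tgfbr1* (12.7 ± 40.2), *Acvrl1* (8.45 ± 24.4), *Acvr2a* (6.06 ± 18.6), *Acvr1* (4.45 ± 25.3) and *Acvr2b* (0). The SD over cells was larger than each mean above 0 and larger than the step between any neighbours in this order. Mean RPKM was lower in stromal than in other cells for *Acvr2b*, *Acvrl1* (8.45 and 15.7) and *Acvr2a* (6.06 and 15.8). Over all cells the mean log2 levels of *Acvrl1* and *Acvr2a* were higher in stromal cells, so their direction depended on the measure. Only 2 other cells held *Acvrl1* and only 2 held *Acvr2a*. By the median over stromal cells only 3 receptors were above 0, namely *Tgfbr2* (33.1), *Tgfbr3* (28.2) and *Bmpr2* (0.140). *Bmpr1a* ranked above *Bmpr2* by the mean although fewer cells held it, since its median among cells above 0 was 38.5 and that of *Bmpr2* was 11.1. The receptor with the highest level per length in a cell was *Tgfbr2* in 21 of 58 stromal cells and *Tgfbr3* in 17. Among the other cells it was *Tgfbr3* in 6 of 27, *Tgfbr1* and *Bmpr2* in 3 each, and 10 cells had no receptor.

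**Figure D3:**
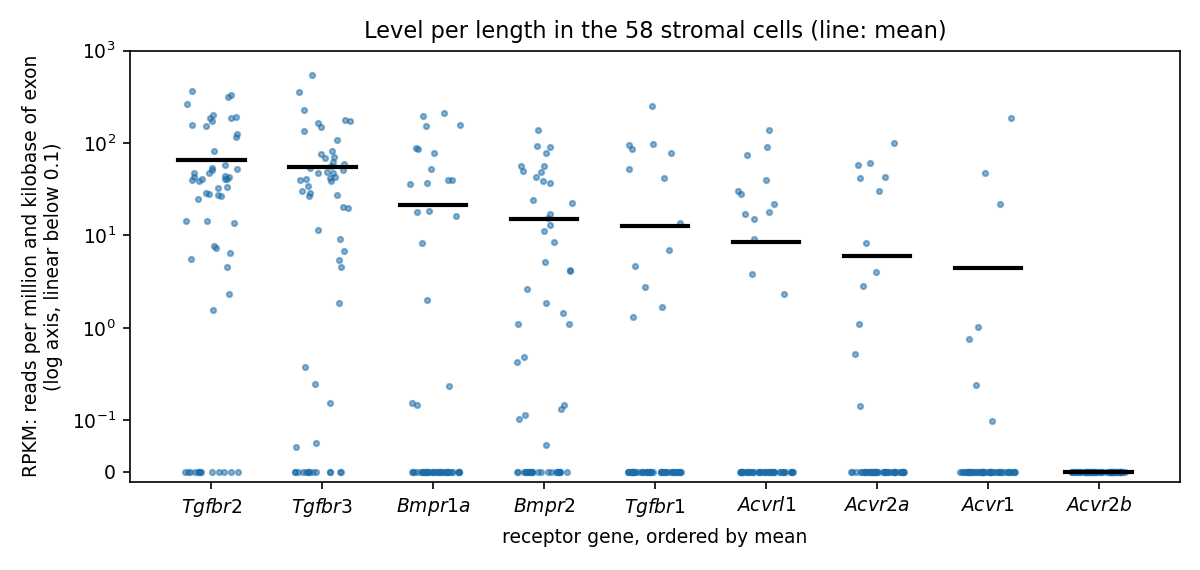
Each point is 1 of 58 stromal cells, the vertical axis gives RPKM (logarithmic, linear below 0.1) and black lines are means, ordered from *Tgfbr2* (65.2) to *Acvr2b* (0). Points spread over several powers of 10 for every receptor with values, and the points at 0 are 13 cells for *Tgfbr2* and 58 cells for *Acvr2b*.

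The number of different receptors in a cell was counted next. Stromal cells had a median of 3 of the 9 receptors (mean 3.22 ± 1.63, range 0 to 8) and other cells a median of 1 (mean 0.963 ± 0.854, range 0 to 2). At least 3 receptors were found in 41 of 58 stromal cells and in 0 of 27 other cells. No receptor was found in 3 stromal and 10 other cells. Genes per cell moved with this count, with a Spearman's rho of 0.66 over all 85 cells, 0.27 over the 58 stromal cells and 0.08 over the 27 other cells, given as descriptions. The 3 stromal cells without any receptor had 850 to 2079 genes above 0, whereas the 4 stromal cells with 6 or more receptors had 2814 to 3929. After every cell was thinned to 1146945 reads, the means were 3.07 and 0.889. In the shared range they were 1.89 and 1.08, with a median of 1 in both classes. All 17 other cells with a receptor had at least 3 endothelial markers, and the 3 other cells without that many markers (285 to 405 genes above 0) had no receptor. The 3 stromal cells with at least 3 endothelial markers had 1 to 6 receptors, with *Tgfbr3* in 3 of them and *Tgfbr2* in 2.

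**Figure D4:**
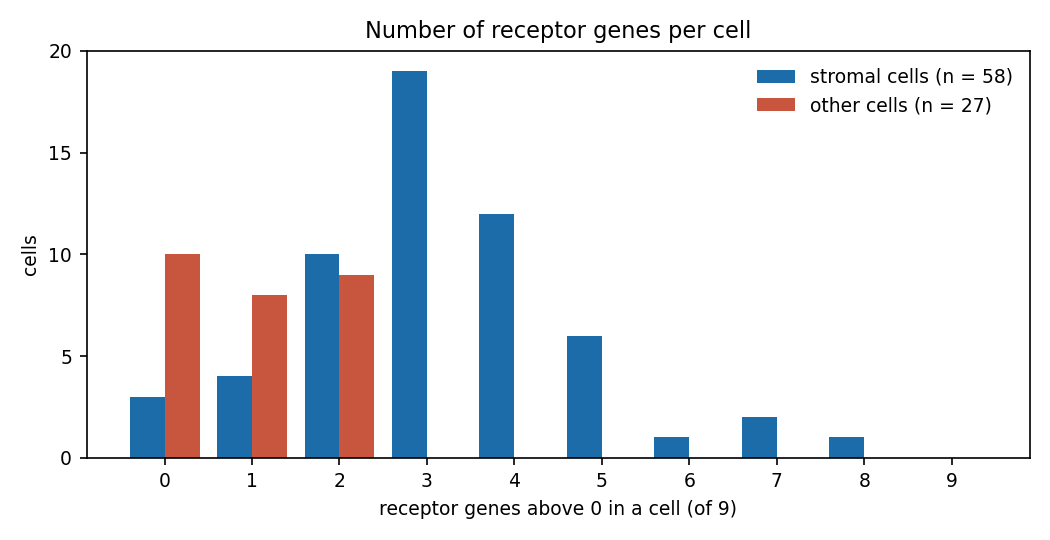
Bars count cells by how many of the 9 receptor genes were above 0, for 58 stromal and 27 other cells. The stromal cells peak at 3 receptors (19 cells) and extend to 8, and the other cells stop at 2 (9 cells).

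Because a type II receptor signals with a type I receptor, their joint presence was counted. Of the 45 stromal cells with *Tgfbr2*, 12 also had *Tgfbr1* and 11 had *Acvrl1*. Either of these was present in 19 (42.2%, interval 27.7% to 57.8%), compared with 3 of 13 stromal cells without *Tgfbr2* (23.1%, interval 5.04% to 53.8%), and these intervals overlap. In 26 of the 45 cells neither was found. Conversely, 12 of 13 stromal cells with *Tgfbr1* had *Tgfbr2* (92.3%, interval 63.97% to 99.8%), as did 33 of 45 without it (73.3%, interval 58.1% to 85.4%). *Tgfbr3* (betaglycan) was present in 34 of 45 stromal cells with *Tgfbr2* (75.6%, interval 60.5% to 87.1%) and in 10 of 13 without it (76.9%, interval 46.2% to 94.96%). *Bmpr1a* was present in 19 of 45 stromal cells with *Tgfbr2* (42.2%, interval 27.7% to 57.8%) and 1 of 13 without it (7.69%, interval 0.195% to 36.03%). The intervals overlap for *Bmpr1a* too. For BMP signalling, 19 of 33 stromal cells with *Bmpr2* had *Bmpr1a*, *Acvr1* or *Acvrl1* (57.6%, interval 39.2% to 74.5%), as did 11 of 25 without *Bmpr2* (44%, interval 24.4% to 65.1%). Among the 9 receptors, at least 1 type I and 1 type II were found together in 31 of 58 stromal cells and 2 of 27 other cells. Each type by itself differed between the classes too. A type I receptor was found in 33 stromal and 6 other cells, and a type II receptor in 52 and 11. Whether the types went together more often than these counts alone would give was not tested. A type II receptor without a type I receptor of this set was seen in 21 stromal and 9 other cells. The type I genes *Acvr1b* (5 stromal and 1 other cells) and *Bmpr1b* (1 stromal cell) were not part of this count. A transcript missed in a cell reads as 0, so these counts are of cells with reads of both.

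No pair of the receptors compared had a correlation over cells above 0.41. Between 13 (*Tgfbr2*) and 46 (*Acvr2a*) of the 58 stromal cells were at 0. Low values therefore cannot show that the receptors vary apart, and other pairs of genes were not compared. Among 7 receptors above 0 in at least 10 stromal cells, Spearman's rho of CPM over the 58 stromal cells ranged from -0.08 to 0.37 over 21 pairs. The highest was *Tgfbr3* with *Bmpr1a* (18 cells with both) and the lowest *Tgfbr3* with *Acvrl1* (9 cells with both). Over all 85 cells the range was -0.03 to 0.41, and cells share depth, genes per cell and, there, the split between classes. Within the stromal cells the CPM of *Tgfbr2* and *Tgfbr3* fell slightly with genes per cell (rho -0.16 and -0.18). *Acvrl1* (0.27), *Bmpr2* (0.20) and *Tgfbr1* (0.19) rose, and *Bmpr1a* (0.013) and *Acvr2a* (0.0054) hardly moved. By share of cells, *Tgfbr2* and *Tgfbr3* were each above 0 in 5 of 9 stromal cells of the shared range, against 45 and 44 of all 58.

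The gene rows most like each receptor were ranked by the same measure. Over all 85 cells and 6119 genes, those most like *Tgfbr2* were *Mfap5* (rho 0.66), *Nid1* (0.65) and *Pcolce2* (0.64), which encode matrix or matrix-processing proteins, and *Mfap5* is also among the stromal markers. Over the 58 stromal cells and 5375 genes, *Tgfbr2* was most like *Gm44510* (0.56), *Ube3a* (0.53) and the pseudogene row *Rps12-ps3* (0.52), whose reads can come from *Rps12*. *Bmpr1a* was most like *Gpc6* (0.52), a glypican, the row *Mir6950* (0.49) and *Sema3d* (0.49), and these 3 led over all cells too. *Tgfbr3* was most like *Slc4a4* (0.45), a bicarbonate transporter, *Gm13408* (0.43) and *Kcnq1ot1* (0.40). *Bmpr2* was most like *RP23-325D10.3* (0.53), *Txnrd1* (0.45) and *Rgl1* (0.45). *Acvrl1* was most like *Aco1* (0.53). *Tgfbr1* was most like *Gskip* (0.52), *Acbd3* (0.51) and *Chd8* (0.48). *Acvr2a* was most like *Irak3* (0.49), *Spin1* (0.49) and *Gm7565* (0.47). Each is the highest of 6119 or 5375 values in sparse counts and is given as a description.

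Other genes of the pathway were compared between the classes from 10 lists of 100 genes. Of these, 67 had a row, 58 were above 0 in at least 3 cells, and the rest were not analysed here or not compared. A difference of at least 2 toward stromal cells was reached by 16 of 58 genes and toward other cells by 1, against 16.4% and 1.09% of all genes. The median difference of the 58 genes was 1.10. Among the 33 cells of the shared range, 12 of 58 reached 2 toward stromal cells and 3 toward other cells, against 8.75% and 3.45% of all genes, and the median was 0.20. By any amount, 30 were higher there in stromal cells and 17 in other cells. The remaining 11, with *Tgfb3*, *Bmp4* and *Zfyve9* among them, had a difference of 0.

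TGF-β ligand genes were found in few cells. *Tgfb3* was above 0 in 8 stromal and 0 other cells (difference 1.44), *Tgfb2* in 6 and 0 (0.78), and *Tgfb1* in 3 of each class (-0.37), so 0 of 3 reached 2, and *Tgfb1* turned to 0.59 in the shared range. Among BMP and GDF ligands 1 of 6 did so, namely *Gdf10* (BMP3b), above 0 in 19 stromal and 0 other cells (3.57), which was 1.34 in the shared range. *Bmp7* (1.03), *Bmp4* (1.01) and *Gdf11* (0.55) were higher in stromal cells too, though *Gdf11* turned to -0.10 in the shared range, and *Bmp6* was at -0.12. The activin and inhibin rows *Inha* and *Inhbb* were above 0 in fewer than 3 cells.

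Genes that store and release TGF-β had the largest differences, with 6 of 7 at least 2 higher in stromal cells and a median of 4.85. *Fbn1* (fibrillin-1, to which latent complexes attach) was above 0 in 44 of 58 stromal and 0 of 27 other cells (8.61). The latent TGF-β binding proteins *Ltbp1* (5.43), *Ltbp4* (5.32) and *Ltbp3* (4.85) were found in 43, 51 and 31 stromal cells and in 6, 10 and 0 other cells. Within the shared range *Fbn1* was at 8.59 and all 3 binding proteins were past 2, the list's median was 2.57, and 5 of 7 genes reached 2, as *Itgav* (3.72) fell to 1.88. *Lrrc32* (GARP), which holds latent TGF-β at the cell surface, was at -0.11. Of the secreted antagonists 2 of 8 reached 2: *Nbl1*, which binds BMPs and was above 0 in 29 stromal and 0 other cells (6.13), and *Fstl1* (4.71). *Bmper* (1.60) and *Twsg1* (1.35) did not. *Nbl1* was at 1.48 and *Bmper* at 2.01 in the shared range. Fibrillins and the binding proteins are also matrix genes, and matrix genes served as markers of the stromal class.

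Among other receptors and co-receptors 0 of 6 reached 2, with *Neo1* (neogenin, 1.92), *Bambi* (a decoy receptor without a kinase, 1.71), *Rgmb* (1.15) and *Rgma* (0.77) found in 0 other cells. In the shared range *Neo1*, *Bambi* and *Rgma* were found in 0 cells of either class, and *Rgmb* was at 0.18. Of the receptor Smads and their adaptors 1 of 8 did, *Smad4*, the partner shared by both branches, in 20 stromal and 2 other cells (2.25), but at 0.23 in the shared range. *Smad3* (1.38), *Zfyve9* (1.13) and *Fkbp1a* (1.09) were lower than that, and *Smad2* (-0.77), *Smad1* (-0.22) and *Map3k7* (-0.01) were below 0, as was *Fkbp1a* in the shared range (-0.34). Of the inhibitors 2 of 8 reached 2, the Smad corepressors *Skil* (4.11) and *Ski* (3.98), ahead of *Pmepa1* (1.51) and *Smurf2* (1.13). *Skil* was at 4.94 in the shared range, *Ski* at 1.46 and *Smurf1*, which was at 0.81 over all cells, at 2.24.

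Target genes split in direction. Of the BMP targets, *Id2* (2.61) and *Id3* (2.14) were at least 2 higher in stromal cells and *Id1* was 4.20 lower, with *Id4* at 1.79, *Hey1* at -1.12 and *Atoh8* at -0.09. *Id1* was above 0 in 18 of 27 other and 19 of 58 stromal cells. Within the shared range *Id1* was 5.78 lower, *Id2* was at 2.80, *Id3* at 0.87 and *Id4* at 2.15. Of the TGF-β targets, *Ctgf* (4.05) and *Tgfbi* (3.44) were at least 2 higher in stromal cells, *Klf10* (1.71) and *Junb* (1.10) did not reach 2, and *Tsc22d1* was at -1.07. In the shared range *Ctgf* was at 4.09, *Tgfbi* was found in 0 of the 33 cells, *Junb* turned to -1.89 and *Tsc22d1* was at -4.62.

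**Figure D5:**
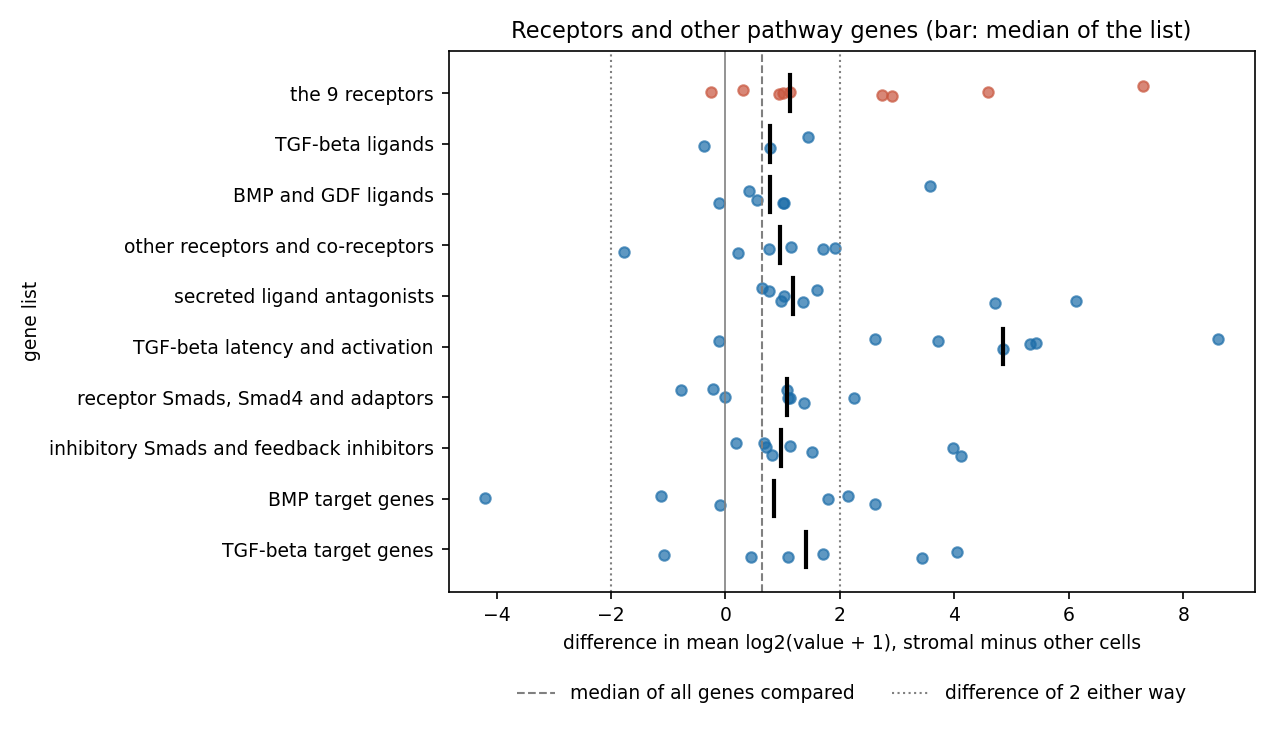
Points are genes, the horizontal axis is the difference in mean log2(value + 1), stromal minus other cells, black bars are list medians, the dashed line is the median of all 11477 genes (0.64) and dotted lines mark 2 and -2. The 9 receptors (top, red) run from -0.25 for *Acvr2b* to 7.30 for *Tgfbr2*, the latency list has the highest median (4.85), and *Id1* is the only point left of -2.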

How the data were processed

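Single sorted PV-ADSCs were sequenced as 1 library per cell. The authors aligned reads to mm9 (HISAT2 2.0.5, SAMtools 1.4 and StringTie 1.3.3 in the submitters' processing notes), selected cells on aligned reads, and normalized with scater. They deposited a single matrix, 85 cells by 16069 genes, whose unit is a normalized signal. The program that counted reads is not given in the sources used here.

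Of genes above 0 in at least 10 cells, 5404, including 7 receptors, fell into 13 groups multiplied by a factor per cell (0.0157 to 94.5). Dividing by these factors gave whole reads for all but 49 of 144272 values (relative tolerance 3e-09) and for all 202 receptor values among them. This recovery was devised after values had been seen. It was tried on data simulated from the recovered reads, in the same groups, with newly drawn factors. That trial takes the recovered reads as given and so cannot show that they are right. All 9942 genes above 0 in fewer than 10 cells, among them *Acvr1* and *Acvr2b*, held whole numbers as deposited. Comparisons over all genes therefore mix rows with and without a factor. Means use log2(deposited value + 1). Depth, read levels, CPM, correlations and RPKM use recovered reads. Lengths are merged exons of GENCODE M21 (GRCm38), another build than mm9. Reads carry no molecular identifiers, so exact Clopper-Pearson intervals and limits for a count of 0 (3 cells) cover counting error only.

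Members and lists were chosen with earlier results of these data known. Named genes were all receptors, the markers, up to 4 genes per direction of each list, and the 3 genes most like each receptor, some of which are not reported here. A difference of 2 is a size rule and not a test. The highest Spearman's correlation between any pair of cells was 0.421, so no library appeared to be a copy. Alternatives were read levels, thinning, pseudocount, CPM, *Dcn* limits and marker filters. Doublets were not called. Python 3.11.15, numpy 2.4.6, pandas 2.3.3, scipy 1.17.1 and matplotlib 3.10.9 were used.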

Additional observations from a re-analysis of the deposited data

How the results depend on the processing

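Receptors with a larger share in stromal cells were counted without the same count over all genes, 83.6% of which were higher there by mean level. A larger share in stromal cells was seen for 8 of 9 receptors at 10 reads, at 100 reads, after thinning and at *Dcn* limits of 100 and 10000, but for 4 in the range of genes per cell that both classes share, an alternative chosen after seeing the data. In that range the median difference was 0.62 over the receptors and 0 over all genes, compared with 1.12 and 0.64 over all cells, 0.76 and 0.35 with a pseudocount of 10, and up to 1.19 for the receptors under the other settings tried. A difference of 2 was passed by 2 receptors and 8.75% of genes in that range, and by 2 receptors and 7.18% of genes with a pseudocount of 10. The range holds fewer cells, and the cause was not tested. A difference of 1 was passed by 6 receptors, and by 35.6% of all genes. By the median over cells, 2 of 9 receptors kept their place by level per length, because 6 medians were 0. The median difference of the pathway genes was 1.75 among the 36 above 0 in at least 10 cells, since genes in few cells were left out, and 0.20 in the shared range, where the medians of BMP and GDF ligands (-0.033), receptor Smads and adaptors (-0.17) and TGF-β targets (-0.19) turned. Stromal cells with *Tgfbr2* and a type I partner numbered 19 at 10 reads and 14 at 100, and 35 of the 42 genes ranked as most like a receptor stayed in the first 3 places with deposited values. No paired analysis was possible because all cells are 1 sample. At 100 reads *Bmpr2* was held by 36.2% of stromal and 11.1% of other cells, outside its intervals at any read. Thinning left the 9 stromal and 9 other shares within their intervals. In the shared range 7 of 9 stromal shares lay outside the intervals for all 58 stromal cells. Those shares rest on 9 cells, and for each of the 7 the wider interval for 9 cells holds the share over all stromal cells. For *Tgfbr2* the share there was 55.6%, with an interval of 21.2% to 86.3%.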
